A study of Homo sapiens with 6 samples.

Results

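The 41 genes described here are mesenchymal markers, transcription factors of the epithelial-mesenchymal transition (EMT), collagens, other matrix proteins and contractile genes. They were chosen as a fixed list of symbols, and all 41 are among the 19775 genes that the array names through a probe set with 1 gene symbol. The list is represented by 153 probe sets. The study hybridised total RNA from a pair of human colorectal cancer cell populations to Affymetrix HG-U133_Plus_2 arrays, which report 1 signal for each set of short probes. SW480 is the untreated parental cell line. M5 is a subpopulation of SW480 that was isolated by selection in an animal and has a raised ability to form liver metastases. Both were grown in the same serum-containing medium, and each was measured on 3 arrays that the labels call biological replicates. Whether M5 is a clone or a mixed population is not given in the sources used here.

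In EMT, epithelial cells loosen their junctions and take on features of fibroblasts. The repressors of the SNAI, ZEB and TWIST families switch off epithelial genes such as E-cadherin, and cells gain vimentin, N-cadherin and fibronectin. Fibrillar collagens, tenascin C, periostin, decorin and the smooth muscle type contractile genes are made in tumours largely by fibroblasts of the stroma, which a pure culture of cancer cells lacks. Carcinoma cells can make some of these proteins themselves, among them basement membrane collagens and fibronectin.

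SW480 replicate 1 and M5 replicate 1 were the dimmest arrays. Before normalisation, the 2% trimmed mean of the brightest array was 4.13 times that of the dimmest. The closest pair of arrays was M5 replicate 2 with M5 replicate 3, whose correlation over 8221 bright probe sets was 0.992, while every other pair had 0.896 to 0.959. Their log2 differences had a median absolute deviation of 0.152, against 0.366 to 0.562 for the other pairs. These 2 arrays may therefore count for less than 2 independent samples, so signals are given array by array in place of means and SDs, and counts from a fit with the 2 arrays averaged are given as well. P-values measure the spread between these arrays. A control probe set for 18S ribosomal RNA had deposited signals of 2824, 4163 and 96.3 in SW480 and 3582, 209 and 234 in M5, so that 2 SW480 arrays and 1 M5 array were high. Of 8 markers of colorectal epithelium, 7 lay above the low-signal floor in the 6-array mean, among them EPCAM, CDH1 and keratins 8, 18, 19 and 20. The marker CDX2 lay below it. Of 8 fibroblast markers that are not on the list, 5 lay above the floor and LUM, FAP and SFRP2 below it. Their summed signal was 61.1 to 86.6 in SW480 and 79.9 to 102 in M5. Summed signals of 5 hepatocyte markers were 24.2 to 62.1 in SW480 and 27.5 to 461 in M5. The highest sum came mostly from FGB and TTR, with signals of 202 and 196 on M5 replicate 1. On M5 replicates 2 and 3 the signals were 23.8 and 9.33 for FGB and 73.1 and 5.68 for TTR. In SW480 they were 1.67 to 11.0 for FGB and 1.43 to 5.17 for TTR. The log2 differences were 2.70 for FGB (SE 0.93, limma adjusted p = 0.331) and 3.52 for TTR (SE 0.97, limma adjusted p = 0.249). Both genes passed the floor only through M5. The markers ALB and TF lay below the floor, and APOA1 had a log2 difference of 0.02. The part of RNA of other cell types in the results was not tested. In bulk RNA, fewer cells of a type and less RNA per cell cannot be told apart.

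Most of the list lay above the low-signal floor. The floor was the 40th percentile of the mean normalised log2 signal, which corresponds to a signal of 5.40. At least 1 probe set of 36 of the 41 members (87.8%) lay above it, as did 14243 of all 19775 genes (72.0%). A gene with more probe sets has more chances to pass, so these shares depend on the number of probe sets. Counted by probe set, 88 of the 153 on the list (57.5%) lay above the floor, which leaves 40% of all probe sets below. The 5 members below it were the collagen genes COL5A1 and COL6A3, the TGF-beta-induced matrix gene TGFBI, the nidogen gene NID2 and the smooth muscle calponin gene CNN1. Signals of their brightest probe sets lay between 0.467 and 12.6 on any array. Those of TGFBI were 0.80, 6.27 and 5.47 in SW480 and 0.70, 2.20 and 0.55 in M5, too low to compare. TNC and WIPF1 lay just above the floor, and COL6A3 and NID2 just below it. The floor does not separate expressed from silent genes, since the table holds no detection calls. Of 20 genes of other tissues, such as the milk protein gene CSN2 and the sperm gene PRM1, 7 also lay above it. The highest mean signal among these reference genes was 13.8, for the kidney water channel gene AQP2. The mean signals of 26 members exceeded that value: 2 of 4 mesenchymal markers, 5 of 7 transcription factors, 6 of 10 collagens, 7 of 12 matrix genes, 5 of 6 contractile genes and QKI. Among the members whose mean did not exceed it were CDH2, SNAI2, PRRX1, THY1, DCN, BGN and COL4A2, so a signal of these genes cannot be told from those of the reference genes. Probe sets differ in their own background, and genes in the number of probe sets from which the brightest is taken, which makes this a rough yardstick only.

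**Figure D1:**
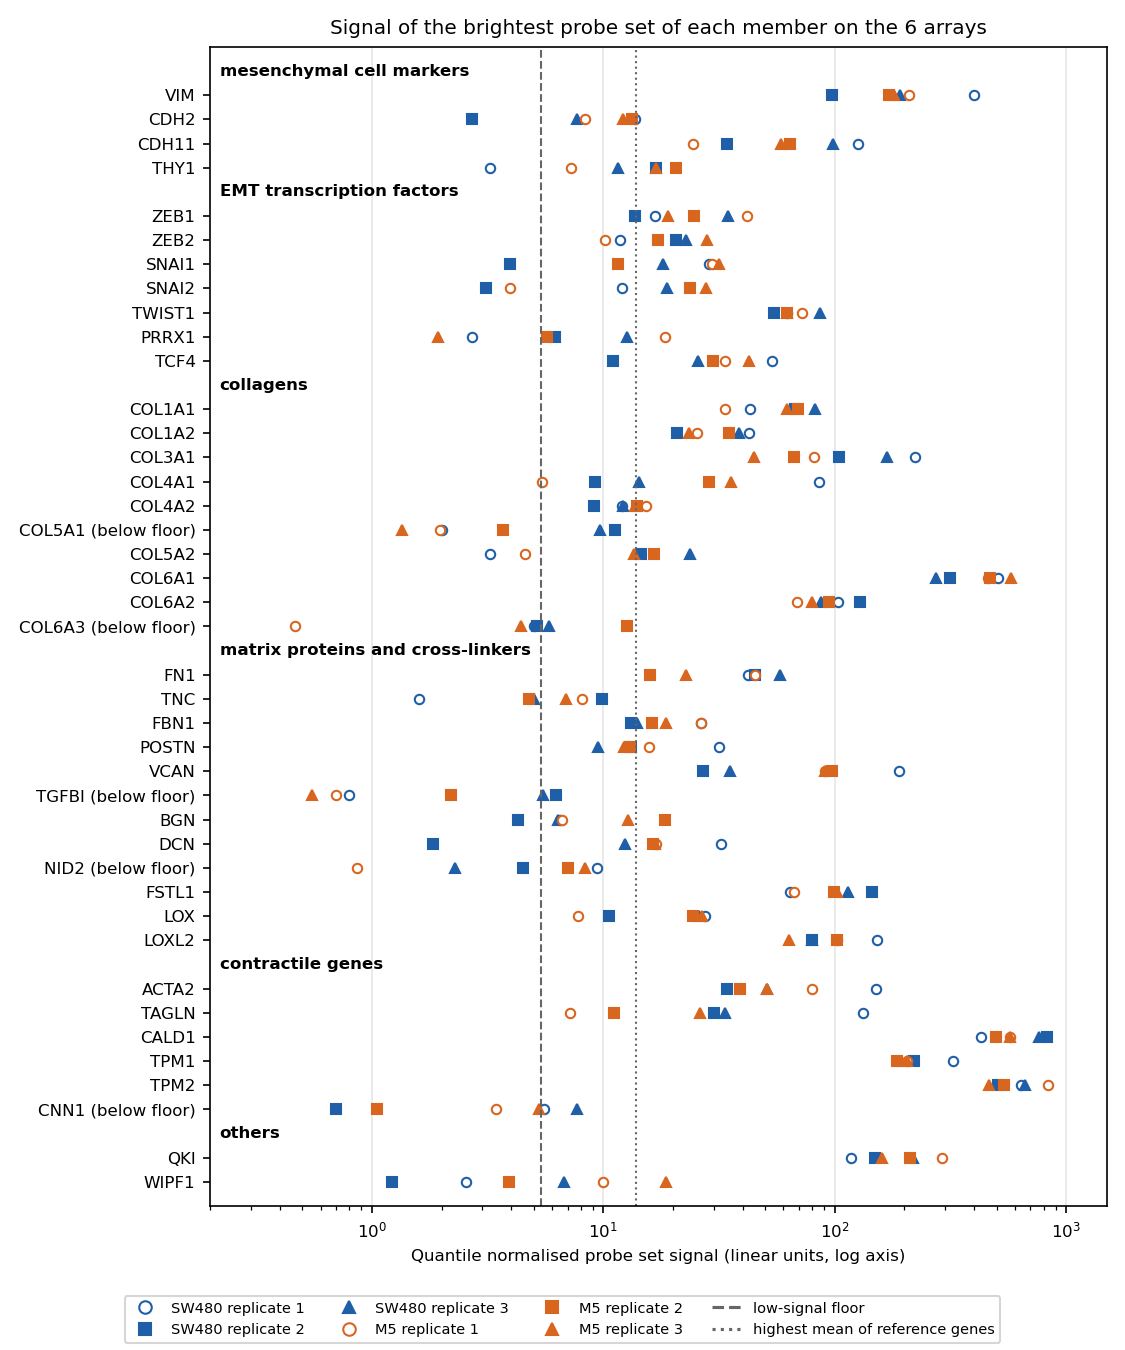
Quantile normalised signal (horizontal log axis) of the brightest probe set of each of the 41 members on the 3 SW480 arrays (blue) and 3 M5 arrays (orange), open circles marking the dimmer array of each population. The dashed line is the low-signal floor at 5.40 and the dotted line the highest mean of the reference genes, 13.8; signals of different genes come from different probes and cannot be ranked against each other.

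No member differed between M5 and SW480 past the threshold. In limma's fit to all 6 arrays, 0 of 36 tested members were higher in M5 and 0 were lower at a Benjamini-Hochberg adjusted p of 0.05 over all genes. Over all 14243 genes tested, 10 were higher (0.0702%) and 9 lower (0.0632%), or 6 and 3 without scaling between arrays. With M5 replicates 2 and 3 averaged, limma again called 0 members, and 1 gene was higher and 3 lower over all genes. At an unadjusted p under 0.05, 0 members were higher (5.43% of all genes) and 2 lower (6.12% of all genes), COL3A1 and TAGLN. The log2 difference was above 0 for 16 members and below 0 for 20, with a median of -0.04, against a median of -0.01 over all genes. The 2 groups did not overlap for 4 members. COL4A2 and BGN were higher on every M5 array (7.74% of all genes), and COL3A1 and TAGLN were lower on every M5 array (8.36% of all genes). The counts of members therefore lay near those of all genes. Of the 153 member probe sets, 88 lay above the floor, and 0 of these passed when p-values were adjusted over probe sets (0.0732% of all probe sets did). The groups did not overlap for 3 member probe sets that were higher in M5 (7.23% of all probe sets), which read COL4A2, COL6A1 and BGN. They did not overlap for 5 that were lower (7.89% of all probe sets), which read THY1, COL3A1, FN1, TAGLN and TPM1. The 95% intervals of single members were wide, from about 1 log2 unit across for TPM2 to over 3 units for COL4A1, so that differences inside them were not detectable with these arrays.

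**Figure D2:**
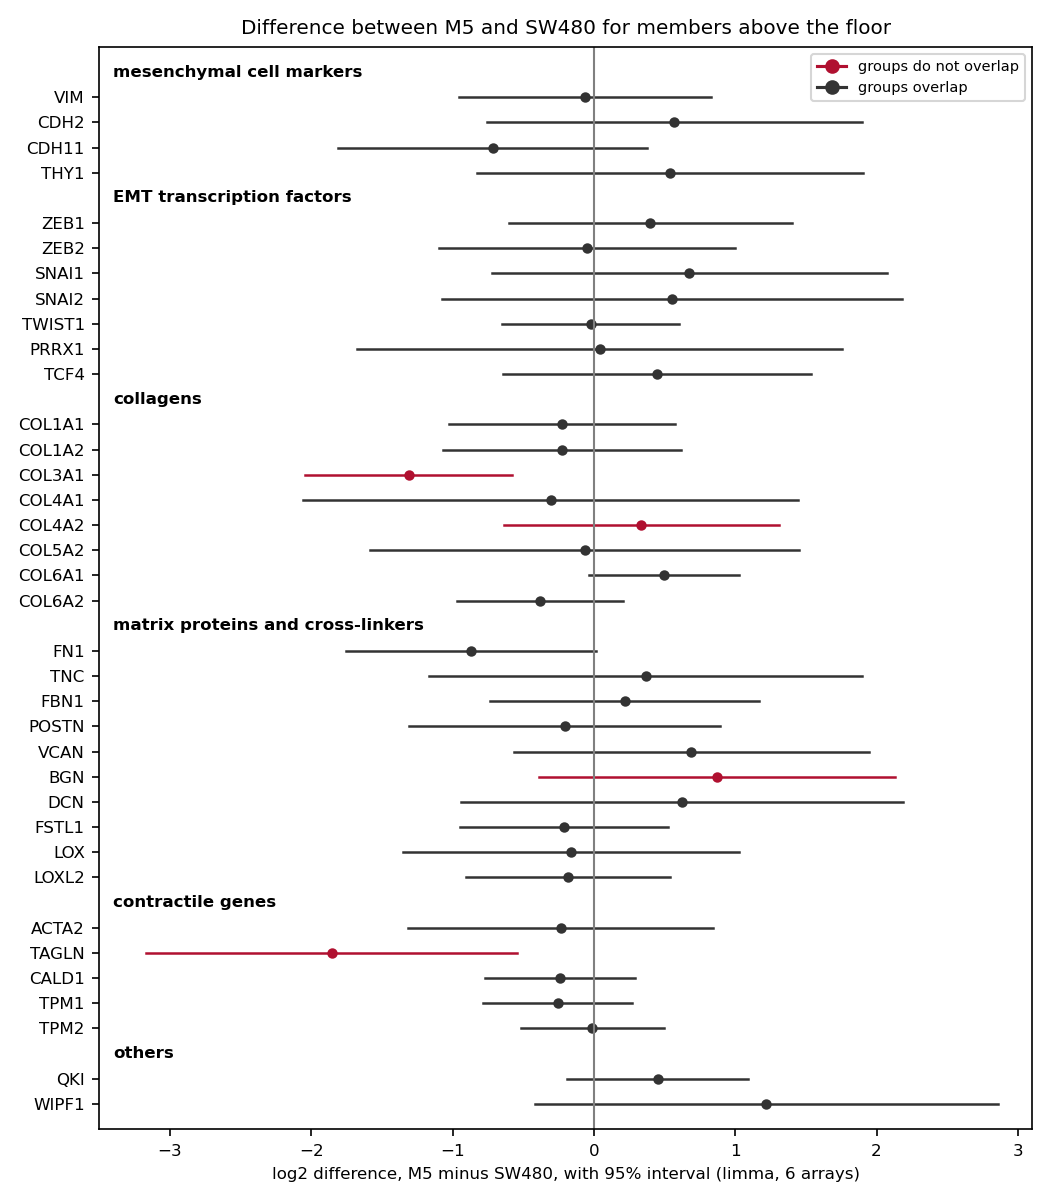
Log2 difference of M5 minus SW480 with its 95% interval (limma, 6 arrays) for the 36 members above the floor, on the log2(signal + 1.7) scale. Red marks the 4 members whose groups do not overlap (COL3A1, COL4A2, BGN and TAGLN); the interval excludes 0 for COL3A1 and TAGLN, but no member passes after adjustment over all genes.

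Among the mesenchymal cell markers, vimentin lay above the highest mean of the reference genes on all 6 arrays and N-cadherin did not. VIM encodes the intermediate filament of mesenchymal cells. Its signals were 399, 97.0 and 192 on SW480 replicates 1, 2 and 3 and 210, 171 and 181 on M5 replicates 1, 2 and 3. The SW480 arrays thus enclose the M5 arrays, and the log2 difference was -0.06 (SE 0.41, 95% interval -0.96 to 0.83, limma adjusted p = 0.969). CDH2 encodes N-cadherin, the cadherin that replaces E-cadherin in many mesenchymal cells. In the same order its signals were 13.7, 2.72 and 7.70 in SW480 and 8.33, 13.3 and 12.2 in M5, a log2 difference of 0.57 (SE 0.60, limma adjusted p = 0.768). These signals span the floor and overlap between the groups. CDH11, the cadherin of osteoblasts and fibroblasts, had signals of 126, 34.2 and 98.3 in SW480 and 24.3, 63.9 and 58.7 in M5. Its log2 difference was -0.72 (SE 0.50, limma adjusted p = 0.619), and again the groups overlapped. It was -0.29 without M5 replicate 1 and -1.27 without SW480 replicate 2. THY1, the surface antigen CD90 of fibroblasts, was read differently by its 2 probe sets above the floor. The brighter (208851_s_at) had a log2 difference of 0.54 and overlapping groups, while 208850_s_at, which passed the floor through SW480, had signals of 15.8, 11.5 and 11.4 in SW480 and 3.45, 2.88 and 0.80 in M5, a log2 difference of -1.89 (SE 0.64, limma adjusted p over probe sets = 0.383).

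All 7 EMT transcription factors had a probe set above the floor, and none differed past the threshold. TWIST1, a basic helix-loop-helix factor of mesoderm and neural crest, had the steadiest signals. They were 62.3, 54.6 and 86.7 in SW480 and 72.3, 62.4 and 62.1 in M5, a log2 difference of -0.02 (SE 0.29, 95% interval -0.65 to 0.60, limma adjusted p = 0.983). TWIST1 was thus above the highest reference mean on all 6 arrays, at levels that overlap between the populations. ZEB1 and ZEB2 encode zinc finger repressors of E-cadherin and of other epithelial genes. ZEB1 signals were 16.7, 13.7 and 34.6 in SW480 and 41.6, 24.6 and 19.0 in M5, with a log2 difference of 0.40 (SE 0.46, limma adjusted p = 0.785). The difference was 1.36 on the 3 arrays of high 18S signal and -0.64 on the 3 of low signal. The other ZEB1 probe sets above the floor, 212758_s_at and 210875_s_at, had differences of the opposite sign (-0.24 and -0.42). ZEB2 signals were 11.8, 20.6 and 22.8 in SW480 and 10.1, 17.3 and 28.0 in M5, with a log2 difference of -0.05 (SE 0.48, limma adjusted p = 0.979). Neither ZEB gene separated the populations. SNAI1 and SNAI2 encode the repressors Snail and Slug, each read by 1 probe set on this array. SNAI1 gave signals of 28.5, 3.95 and 18.1 in SW480 and 29.5, 11.6 and 31.6 in M5, a log2 difference of 0.68 (SE 0.64, limma adjusted p = 0.728). SNAI2 gave 12, 3.1 and 18.8 in SW480 and 3.95, 23.7 and 27.8 in M5, a log2 difference of 0.55 (SE 0.74, limma adjusted p = 0.822). SW480 replicate 2 was the lowest array for both, and SNAI2 crossed the floor within each population. TCF4 encodes E2-2, a partner of TWIST-type factors that is distinct from the Wnt effector TCF7L2. Its signals were 53.8, 11.0 and 25.8 in SW480 and 33.5, 29.8 and 42.5 in M5, a log2 difference of 0.45 (SE 0.50, limma adjusted p = 0.781), and 2 of its 4 probe sets above the floor had the opposite sign. PRRX1, a homeobox factor of limb and craniofacial mesenchyme, ranged from 1.93 to 18.5 over the 6 arrays with both of those extremes in M5.

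The collagens gave the member with the smallest p-value. COL3A1 encodes the chain of type III collagen, a fibrillar collagen of distensible tissues. Its signals (215076_s_at) were 223, 104 and 168 in SW480 and 81.2, 66.5 and 45.0 in M5. Every M5 array lay below every SW480 array, and the log2 difference was -1.31 (SE 0.33, 95% interval -2.04 to -0.58, unadjusted p = 0.00227, limma adjusted p = 0.224). The difference was -1.44 on the dimmer pair and -1.25 on the 4 brighter arrays, a direction that groups without overlap fix. The other COL3A1 probe sets above the floor had differences of -1.08 and -0.31 with overlapping groups, the latter passing the floor through SW480. COL1A1 and COL1A2 encode the chains of type I collagen, which assemble with each other. COL1A1 signals were 42.9, 67.0 and 81.9 in SW480 and 33.7, 69.4 and 61.9 in M5, a log2 difference of -0.23 (SE 0.36, limma adjusted p = 0.853). COL1A2 signals were 42.6, 20.7 and 38.7 in SW480 and 25.3, 35.0 and 23.5 in M5, also a log2 difference of -0.23 (SE 0.38, limma adjusted p = 0.858). Both type I chains overlapped between the populations. COL5A2, a type V chain that co-assembles with type I fibrils, ranged from 3.23 to 23.6 in SW480 and from 4.60 to 16.6 in M5.

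Type VI collagen forms beaded filaments from 3 different chains, and the arrays read its chains unequally. COL6A1 signals (213428_s_at) were 509, 314 and 275 in SW480 and 459, 466 and 578 in M5, a log2 difference of 0.50 (SE 0.24, 95% interval -0.04 to 1.03, limma adjusted p = 0.464). SW480 replicate 1 alone lay among the M5 arrays. Without SW480 replicate 1 the difference was 0.76, and without SW480 replicate 3 it was 0.32. The other COL6A1 probe sets varied, from 2.82 for 212937_s_at to -1.05 for 214200_s_at, which lay below the floor. The signals of 212937_s_at were 2.37, 1.77 and 12.6 in SW480 and 32.2, 40.9 and 47.1 in M5 (SE 0.58, limma adjusted p over probe sets = 0.171). That probe set passed the floor only through M5, where it was high, so its direction lends no support, and it was named after its values were seen. COL6A2 signals were 103, 128 and 87.1 in SW480 and 68.6, 94.0 and 79.8 in M5, a log2 difference of -0.38 (SE 0.27, limma adjusted p = 0.624). The other COL6A2 probe set above the floor, 213290_at, had a difference of 0.29. COL6A3 lay below the floor, with signals from 0.467 to 12.6.

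COL4A1 and COL4A2 encode the chains of type IV collagen, the sheet-forming collagen of basement membranes. Their genes lie head to head and are transcribed in opposite directions, so that 1 stretch of DNA serves as the promoter region of both. The RefSeq start sites on GRCh38.p14 leave 126 bases between them, at chr13:110307158-110307283. The stretch is shown because both genes are members, on the plus strand with COL4A2 downstream of its right end and COL4A1 to its left on the other strand. Capitals mark matches on either strand to any of 5 motifs searched: the TATA box (TATAAA), the CCAAT box (CCAAT), the GC box (GGGCGG), the E-box bound by ZEB and SNAI factors (CAGGTG) and the cyclic AMP response element (TGACGTCA).
COL4A1 and COL4A2: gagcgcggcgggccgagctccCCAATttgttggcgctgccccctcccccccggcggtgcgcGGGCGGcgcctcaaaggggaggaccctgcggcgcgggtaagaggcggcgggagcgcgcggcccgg
The 126 bases are 80.2% G or C and hold a CCAAT match and a GC box match. Among 34943 windows of that length directly upstream of RefSeq start sites, 21.1% hold the CCAAT letters and 34.5% the GC box letters. COL4A1 signals (211981_at) were 85.1, 9.23 and 14.3 in SW480 and 5.45, 28.6 and 35.5 in M5, while those of COL4A2 (211966_at) were 12, 9.13 and 12.1 in SW480 and 15.3, 13.9 and 13.7 in M5. COL4A1 thus had its extremes on the dimmest array of each population. The other probe sets gave other patterns: 211980_at of COL4A1 was lowest on SW480 replicate 1, at 3.95, and 211964_at of COL4A2 ran from 0.70 to 12.4. The log2 differences were -0.30 for 211981_at of COL4A1 (SE 0.80, limma adjusted p = 0.916) and 0.34 for 211966_at of COL4A2 (SE 0.44, limma adjusted p = 0.818). For each gene, the other probe set above the floor had a difference of the opposite sign.

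Among the matrix glycoproteins, proteoglycans and cross-linking enzymes, FN1 and VCAN are given in most detail, because their calls turned on which arrays were used. FN1 encodes fibronectin, the adhesive glycoprotein that integrins bind, and VCAN encodes versican, a large chondroitin sulphate proteoglycan of provisional matrix. The 250 bases upstream of their RefSeq start sites (GRCh38.p14) are printed 5′ to 3′ on the gene's strand, with the same motif matches in capitals. The FN1 stretch is chr2:215436069-215436318 on the minus strand and the VCAN stretch chr5:83471494-83471743 on the plus strand.
FN1: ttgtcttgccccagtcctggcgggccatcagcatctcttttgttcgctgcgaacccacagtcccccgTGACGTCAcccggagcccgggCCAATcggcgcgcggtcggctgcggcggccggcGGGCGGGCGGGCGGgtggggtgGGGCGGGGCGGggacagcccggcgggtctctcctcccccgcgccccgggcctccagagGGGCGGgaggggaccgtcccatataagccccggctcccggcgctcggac
VCAN: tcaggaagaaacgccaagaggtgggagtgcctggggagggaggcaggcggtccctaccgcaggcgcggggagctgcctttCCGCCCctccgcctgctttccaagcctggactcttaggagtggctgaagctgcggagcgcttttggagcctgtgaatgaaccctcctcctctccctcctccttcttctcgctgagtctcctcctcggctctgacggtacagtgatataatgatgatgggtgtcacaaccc
The FN1 stretch holds the letters of a cyclic AMP response element beginning 183 bases before the start site, a CCAAT match and 6 GC box matches, some of which overlap. The cyclic AMP response element occurs in 1.6% of all 34943 such windows, CCAAT in 32.0% and the GC box in 42.5%. The VCAN stretch holds a GC box match on the reverse strand. Neither stretch holds the letters CAGGTG, which 17.5% of the windows hold, or TATAAA, which 10.8% hold. A match or its absence in these windows says nothing of binding.

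FN1 signals (210495_x_at) were 42.3, 45.1 and 58.2 in SW480 and 45.1, 16.0 and 22.8 in M5. M5 replicate 1 lay among the SW480 arrays and the other M5 arrays below them. The log2 difference was -0.87 (SE 0.40, 95% interval -1.75 to 0.01, limma adjusted p = 0.443). It was -1.28 without M5 replicate 1 and -0.56 without M5 replicate 2. On the 3 arrays of high 18S signal it was 0.04 and on the 3 of low signal -1.53, and with the 18S level as a block it was -0.74 (limma adjusted p = 0.562). Among the other 4 FN1 probe sets above the floor, 214701_s_at differed in sign. VCAN signals (221731_x_at) were 189, 26.9 and 35.3 in SW480 and 90.6, 97.1 and 91.1 in M5. The M5 arrays were close together and lay between SW480 replicate 1 and the other SW480 arrays. The log2 difference was 0.69 (SE 0.57, 95% interval -0.57 to 1.95, limma adjusted p = 0.690). It was 0.17 without SW480 replicate 2 and 1.56 without SW480 replicate 1. The other 4 VCAN probe sets had differences of 0.48 to 1.99, the largest from 204619_s_at, which passed the floor only through M5. In all 5, SW480 replicate 1 was the highest SW480 array. BGN encodes biglycan, a small leucine-rich proteoglycan. Its signals were 6.5, 4.27 and 6.38 in SW480 and 6.60, 18.4 and 12.8 in M5, a log2 difference of 0.87 (SE 0.57, limma adjusted p = 0.597). The groups did not overlap, by the narrow margin between SW480 replicate 1 and M5 replicate 1, and the SW480 signals lay around the floor. Its relative decorin (DCN) ranged from 1.83 to 32.1 in SW480 and from 16.5 to 16.9 in M5. FSTL1, a secreted follistatin-like protein, and LOXL2, a lysyl oxidase that cross-links collagen, lay above the highest reference mean on all 6 arrays, with log2 differences of -0.21 (SE 0.33) and -0.18 (SE 0.33). The cross-linking enzyme LOX (-0.16), the microfibril gene FBN1 (0.22), the periostin gene POSTN (-0.21) and the tenascin C gene TNC (0.36) had overlapping groups. Limma adjusted p for FSTL1, LOXL2, LOX, FBN1, POSTN and TNC lay between 0.849 and 0.931.

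**Figure D3:**
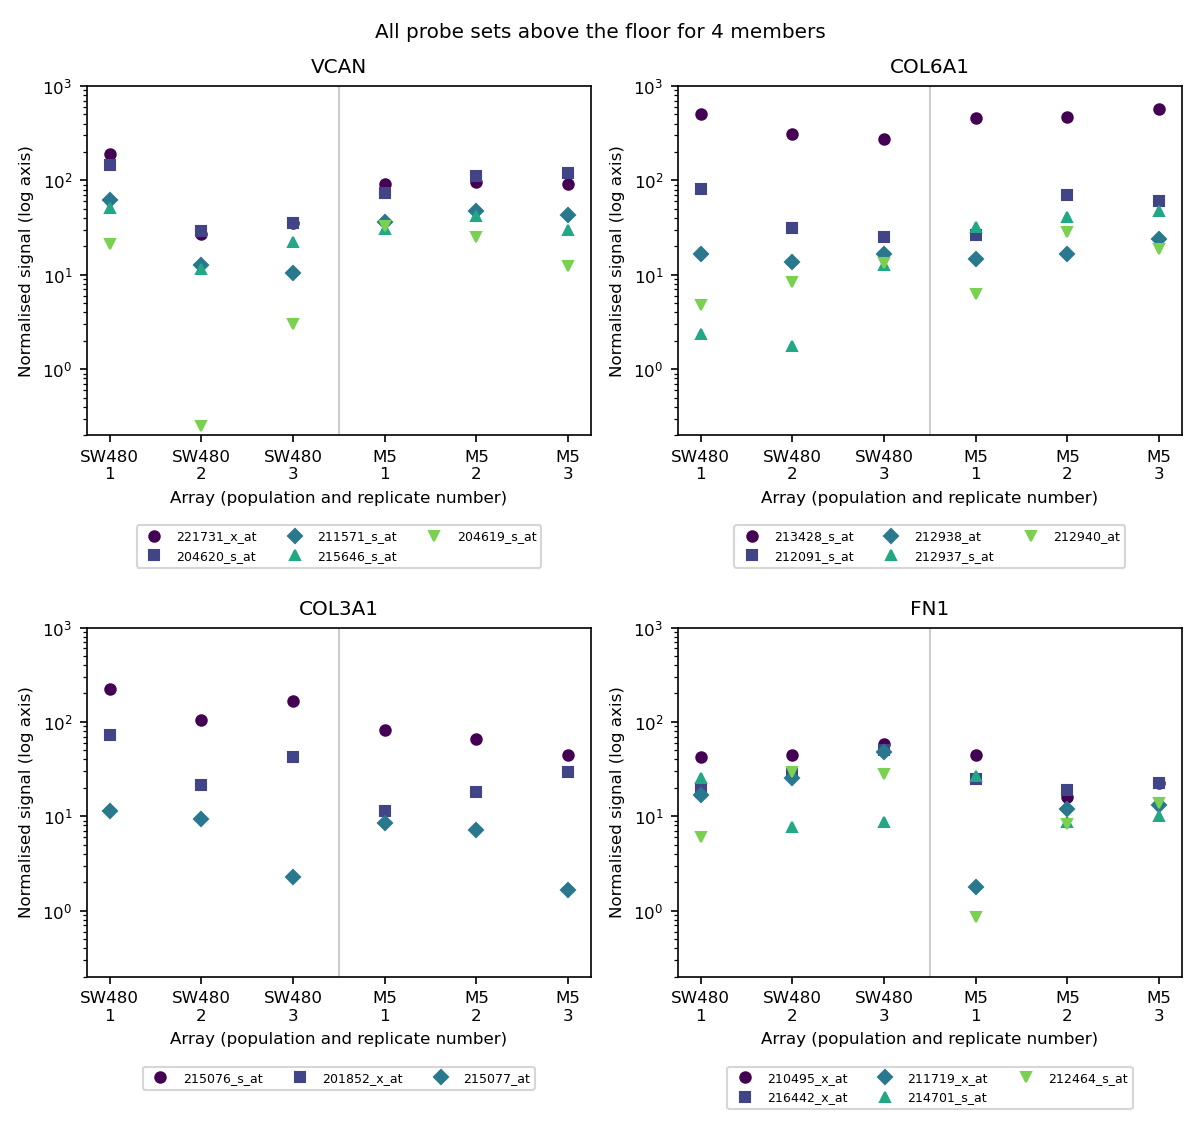
Normalised signal (log axis) of every probe set above the floor for VCAN, COL6A1, COL3A1 and FN1 on each of the 6 arrays, SW480 left of the line and M5 right of it. In VCAN all 5 probe sets are highest on SW480 replicate 1 among the SW480 arrays, and in COL3A1 the brightest probe set is lower on all 3 M5 arrays (45.0 to 81.2) than on any SW480 array (104 to 223).

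Of the 6 contractile genes, 5 lay above the floor on all 6 arrays. The log2 difference of the brightest probe set was below 0 for each of the 5, as it was for 7227 of all 14243 genes. TAGLN encodes transgelin (SM22), an actin-binding protein of smooth muscle and myofibroblasts. Its brightest probe set (1555724_s_at) had signals of 132, 30.2 and 33.5 in SW480 and 7.15, 11.2 and 26.2 in M5. Every M5 array lay below every SW480 array, and the log2 difference was -1.86 (SE 0.60, 95% interval -3.17 to -0.54, unadjusted p = 0.00984, limma adjusted p = 0.316). The difference was -3.92 on replicate 1 of each population, against -0.82 on the 4 brighter arrays, and -1.22 without SW480 replicate 1. The other 2 TAGLN probe sets had differences of -0.20 and -0.00. ACTA2, which encodes smooth muscle alpha-actin, ranged from 34.1 to 150 in SW480 and from 39.1 to 79.8 in M5, a log2 difference of -0.24 (SE 0.49, limma adjusted p = 0.892). CALD1 encodes caldesmon, which has a smooth muscle form and a form found in most cells. Its signals were 428, 825 and 761 in SW480 and 573, 496 and 573 in M5, a log2 difference of -0.24 (SE 0.24, limma adjusted p = 0.749), and 3 of its 8 probe sets above the floor had a negative one. TPM1 and TPM2 encode tropomyosins, the rod-shaped proteins that line actin filaments. TPM1 signals were 323, 219 and 189 in SW480 and 205, 186 and 205 in M5, a log2 difference of -0.26 (SE 0.24, limma adjusted p = 0.726). Of its 5 probe sets above the floor, 3 had a negative difference. TPM2 ranged from 505 to 664 in SW480 and from 464 to 835 in M5, a log2 difference of -0.01 (SE 0.23, 95% interval -0.52 to 0.50), the narrowest interval of the list. The other TPM2 probe set above the floor, 212654_at, had a difference of 0.63.

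The remaining members are QKI, an RNA-binding protein that shapes splicing during EMT, and WIPF1, a regulator of actin assembly through WASP. QKI signals were 117, 149 and 217 in SW480 and 290, 210 and 160 in M5, a log2 difference of 0.45 (SE 0.29, limma adjusted p = 0.592). Of its 7 probe sets above the floor, 5 had a positive difference. WIPF1 signals were 2.55, 1.22 and 6.75 in SW480 and 9.97, 3.90 and 18.6 in M5, around the floor, which it passed only through M5, with a log2 difference of 1.22 (SE 0.74, limma adjusted p = 0.568).

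Members varied widely among the SW480 arrays. The median SD of log2 signal over the 3 SW480 arrays was 0.677 for members, against 0.373 over all genes. Over the 3 M5 arrays it was 0.423 for members and 0.341 over all genes. SW480 replicate 1 was the highest SW480 array for 19 of 36 members (52.8%), against 38.4% of all genes, and SW480 replicate 2 the lowest for 22 (61.1%), against 33.2%. Among the other EMT and matrix genes described below, these shares were 61.5% and 40.4%, and the median SD over the SW480 arrays was 0.381. The raised share of SW480 replicate 1 is therefore not particular to the members. The SD of that list lay near that of all genes, and its share for SW480 replicate 2 was nearer to that of all genes than to that of members. With arrays centred on the median in place of quantile normalisation, SW480 replicate 1 was the highest for 11 of 36 members (30.6%), against 15.3% of all genes. SW480 replicate 2 was then the lowest for 55.56% of members, against 18.35% of all genes. VIM, CDH11, COL3A1, COL4A1, VCAN, DCN, ACTA2 and TAGLN were among those highest on SW480 replicate 1. The trimmed means of SW480 replicates 1, 2 and 3 were 20.95, 53.4 and 86.4, and the part of array brightness in this pattern was not tested.

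The dimmer pair and the 4 brighter arrays share no sample, and for many members they differed in sign. The M5 minus SW480 difference had the same sign in both for 12 of 36 members (33.3%), and for 7210 of 14243 genes (50.6%). The median size of the difference over members was 0.69 on the dimmer pair and 0.36 on the brighter arrays, against 0.42 and 0.41 over all genes. COL4A1 went from -3.60 on the dimmer pair to 1.34 on the brighter arrays. VCAN went from -1.05 to 1.56, SNAI2 from -1.28 to 1.47, CDH2 from -0.62 to 1.16 and VIM from -0.92 to 0.36. In the other direction, PRRX1 went from 2.20 to -1.04 and FN1 from 0.09 to -1.35. COL3A1 (-1.44 and -1.25), WIPF1 (1.46 and 1.10) and COL4A2 (0.32 and 0.34) were alike in both. For COL3A1 and COL4A2 the shared sign was fixed by groups that do not overlap. WIPF1 passed the floor only through M5, so its direction lends no support. All of these were named after their values were seen.

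**Figure D4:**
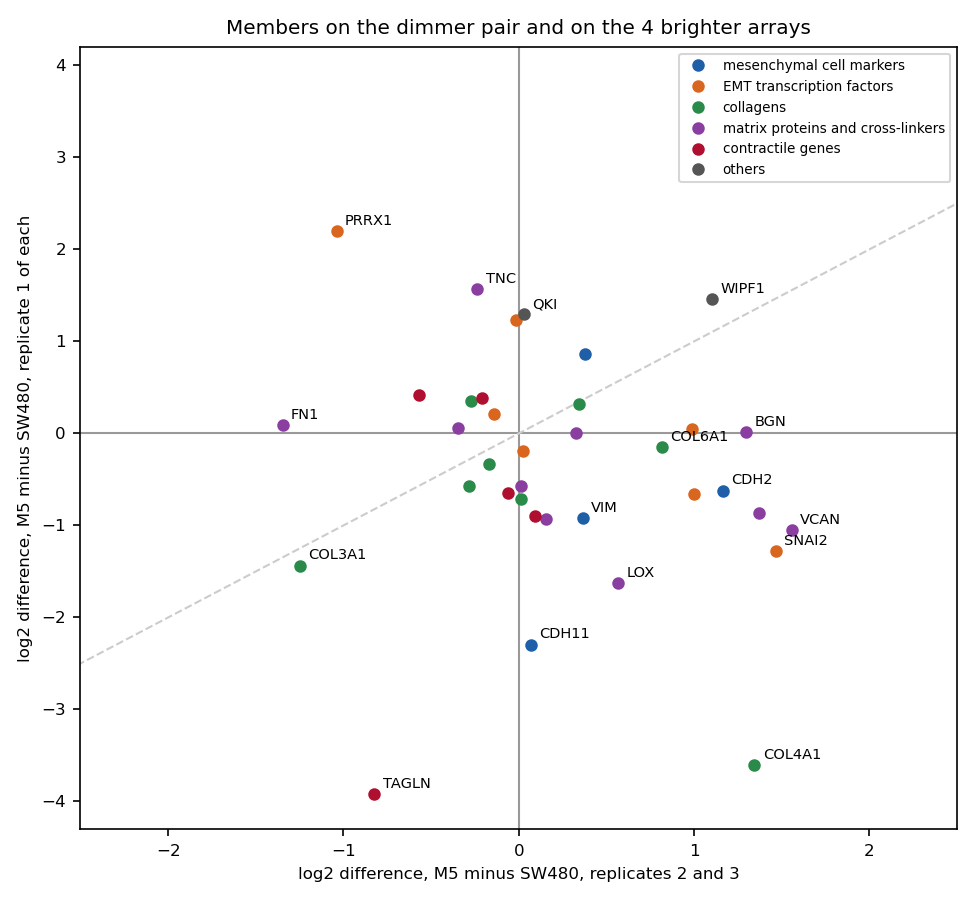
Log2 difference of M5 minus SW480 on replicate 1 of each population, the dimmer pair (vertical axis), against that on replicates 2 and 3 (horizontal axis) for the 36 members above the floor, coloured by role. Points in the upper left and lower right have opposite signs (24 of 36 members); COL3A1 lies near the dashed line of equality at -1.25 and -1.44, and COL4A1 and VCAN lie far from it.

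Refitting without the dimmer pair called 5 of 37 members (13.5%), where 11.4% of all genes were called, 5.06% higher and 6.29% lower. VCAN and COL6A1 were higher in M5, with log2 differences of 1.84 (SE 0.25, limma adjusted p = 0.00313) and 0.82 (SE 0.17, limma adjusted p = 0.0183). COL3A1 (-1.27, SE 0.30, limma adjusted p = 0.0295), FN1 (-1.40, SE 0.33, limma adjusted p = 0.0289) and CALD1 (-0.57, SE 0.14, limma adjusted p = 0.0384) were lower. VCAN was represented there by another probe set, 204620_s_at. The probe set of the 6-array fit had a difference of 1.60 on these arrays. With M5 replicates 2 and 3 also averaged, 1 of 37 members was called, where 0.861% of all genes were higher and 1.21% lower. That member was VCAN (log2 difference 1.84, SE 0.38, limma adjusted p = 0.0322). The lone M5 sample is then assumed to vary like the 2 SW480 arrays. On all 6 arrays with array weights, limma called COL6A1 higher (0.70) and COL3A1 (-1.31) and FN1 (-1.23) lower, where 3.81% of all genes were higher and 4.98% lower. Over the 20 alternatives, limma adjusted p ranged from 0.00313 to 1 for VCAN, from 0.0131 to 1 for COL3A1, from 0.0183 to 1 for COL6A1 and from 0.0289 to 1 for FN1, and none of these genes changed sign.

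A wider list of 69 other EMT and matrix genes held further collagens, collagen-processing enzymes, TGF-beta pathway genes and epithelial splicing factors. On the array, 65 had a probe set with 1 symbol and 52 were tested. None passed in limma's fit to 6 arrays (0.0702% of all genes were higher and 0.0632% lower), and the median log2 difference was -0.01, as over all genes. At an unadjusted p under 0.05 there were 5 higher (AXL, PRRX2, LOXL1, COL13A1 and FOXC2) and 4 lower (SPARC, TGFB1, SMAD7 and ESRP1), where 5.43% and 6.12% of all genes were. The SW480 mean of FOXC2 lay just below the floor, which the gene passed through M5, so its direction lends no support. SPARC encodes osteonectin, a collagen-binding matrix protein. Its signals were 97.2, 63.6 and 162 in SW480 and 9.07, 1.43 and 16.7 in M5, and its limma adjusted p of 0.0502 (log2 difference -3.58, SE 0.60) just missed the threshold. It passed in 10 of 20 alternatives, with adjusted p from 0.00431 to 0.411. AXL, a receptor kinase linked to EMT, had signals of 221, 85.1 and 103 in SW480 and 397, 320 and 297 in M5 (log2 difference 1.41, SE 0.33, limma adjusted p = 0.166). TGFB1, the gene of the cytokine TGF-beta 1 that induces EMT, had signals of 127, 163 and 86.4 in SW480 and 63.4, 61.5 and 67.5 in M5 (log2 difference -0.90, SE 0.29, limma adjusted p = 0.307). PRRX2, a homeobox relative of PRRX1, had signals of 22.2, 37.9 and 26.2 in SW480 and 58.8, 48.4 and 63.8 in M5 (log2 difference 0.97, SE 0.33, limma adjusted p = 0.325). Of the 52 genes tested, the groups did not overlap for 6 that were higher in M5 (7.74% of all genes) and 6 that were lower (8.36% of all genes), and SPARC, AXL, TGFB1 and PRRX2 are among them.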

How the data were processed

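The authors deposited 1 intensity per probe set and array, on a linear scale, made with GCOS 1.4 per the submitters' processing notes. The sources used here give no settings or scaling target. Precision is limited by the number of arrays. The 62 control probe sets of 54675 were left out. Signals were quantile normalised between the 6 arrays and tested as log2(signal + 1.7). The added 1.7 is the 20th percentile of the deposited values and makes differences of low genes too small. Dropping the dimmest 40% by mean log2 signal left 32768 probe sets and 14243 genes, each represented by its brightest probe set with 1 symbol in the platform annotation. Gene IDs matched RefSeq for 41043 probe sets and changed 0 symbols.

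M5 was compared with SW480 in limma 3.58.1 under R 4.3.3 (lmFit, then eBayes with a trend on intensity). Tests are two-sided and adjusted over genes by Benjamini-Hochberg. Full statistics are given for 13 core members and for the 12 members of smallest p-value, and for 4 genes of the wider list. Alternatives covered scaling, pseudocount, filter, probe set choice, trend, blocks, weights and left-out arrays. The script was tested on simulated signals. Promoter windows from RefSeq matched 27 of the 41 members. The members, lists, tests and alternatives were chosen with earlier results of these data known. Figures were drawn with matplotlib 3.10.9.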

Additional observations from a re-analysis of the deposited data

How the results depend on the processing

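Over 21 alternatives, no member was called except without the 2 dimmest arrays (2 higher and 3 lower), in that fit with M5 replicates 2 and 3 averaged (1 and 0), and with array weights (1 and 2), and each fit lacking a single array called 0 members. The cause was not tested.

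The wider list had 0 calls among the 52 genes tested on 6 arrays. Without the 2 dimmest arrays 7 were higher and 3 lower, where 5.06% and 6.29% of all genes were. When the 2 close M5 arrays were averaged too, the log2 difference was 1.725 for AXL and -3.933 for SPARC. With array weights 4 were higher and 3 lower, where 3.81% and 4.98% of all genes were. SPARC was the 1 gene lower with no scaling, median centring, 4 times the pseudocount, no filter, the replicate block, or M5 replicates 2 and 3 averaged. Leaving out 1 array gave 0 to 1 higher and 0 to 2 lower: AXL passed without SW480 replicate 1 and SPARC without M5 replicate 1.

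Over all genes, 10 were higher and 9 lower. The counts were 6 and 3 with no scaling, 5 and 4 with median centring, 21 higher with no filter, 5 lower with the stricter filter, 0 and 0 without the trend, 5 lower with the probe set of median signal, 1 and 3 with M5 replicates 2 and 3 averaged, 717 and 891 without the 2 dimmest arrays, 122 and 171 with both changes, and 542 and 710 with array weights. Leaving out 1 array gave 0 to 102 higher and 2 to 150 lower: for SW480, removing replicate 1 gave 100 and 55, replicate 2 gave 3 and 4 and replicate 3 gave 4 and 2, and for M5, removing replicate 1 gave 102 and 150, replicate 2 gave 0 and 2 and replicate 3 gave 2 and 2. Adjusting over all kept probe sets called 0 members. That adjustment and the averaged fit without the 2 dimmest arrays were added after the data were seen.

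Of 21 named members, 9 kept their sign in every alternative that tested them, and no sign change concerned a called value. Of these 9, WIPF1 was tested in 16 of 20 alternatives and CDH2 and BGN in 19. COL6A2 and BGN have 2 probe sets above the floor, and the probe set of median signal was then again the brightest. Without the 2 dimmest arrays, unaveraged or averaged, the log2 difference was 0.37 for VIM, -0.01 for ZEB1, 0.02 for ZEB2 and COL1A2 and 0.08 for TAGLN and CDH11. Each fit takes its own brightest probe set, and the 0.08 of TAGLN comes from 205547_s_at, while 1555724_s_at gave -0.87 on those arrays. It was 0 for VIM with no scaling and 0.14 with array weights, 0.01 for ZEB2 with array weights, -0.05 for SNAI2 with the level of the 18S control (high or low) as a block and 0.01 for TWIST1 with M5 replicates 2 and 3 averaged. With the probe set of median signal it was -0.24 for ZEB1, -0.28 for TCF4 and -0.52 for QKI. Leaving out 1 array gave -0.57 to 0.45 for VIM, -0.38 to 0.29 for ZEB2, -0.03 to 1.21 for SNAI1, -0.06 to 1.34 for SNAI2, -0.16 to 0.16 for TWIST1, -0.09 to 0.99 for TCF4 and -0.7 to 0.09 for COL1A1, whose -0.7 comes from another probe set (-0.17 with that of the 6-array fit).

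The replicate numbers showed no clear pairing: the deviations of arrays with equal numbers had correlations of 0.107, 0.016 and 0.071, and the replicate block called 0 members. Arrays with unequal numbers had -0.113 to 0.076. Over bright probe sets, however, the signals of the dimmest arrays, SW480 replicate 1 and M5 replicate 1, had a correlation of 0.951. SW480 replicate 1 had lower ones with SW480 replicates 2 and 3 (0.912 and 0.916). Members above the floor numbered 26 with the stricter filter, 35 with 4 times the pseudocount and 36 with the other scalings and pseudocounts. Without detection calls, signals near the floor set no firm fold.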
